A study of Homo sapiens with 6 samples.

Results

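BCL2 family proteins set the threshold for apoptosis at the mitochondrion, and 10 of their genes were followed across 6 arrays of mammary epithelial acini with or without reduction of the phosphatase SHP2. The genes were BCL2L11, BMF, BBC3, PMAIP1, BIK, BAX, BCL2, BCL2L1, MCL1 and BCL2A1. They were chosen by name with earlier results of these data known, and each had 1 probe set carrying its symbol alone. All 10 were among the 18377 genes tested. The cells were the human line labelled MCF10A-HER2/3, derived from the non-tumorigenic mammary epithelial line MCF10A, and the labels do not say how the receptors are expressed. They carried a lentiviral, doxycycline-inducible construct for a control miR (CTRL miR), SHP2 miR1 or SHP2 miR2, with 2 arrays for each of these 3 groups. All groups, control included, received doxycycline and grew for 15 days in three-dimensional culture in a medium with horse serum, insulin, hydrocortisone, EGF and cholera toxin. SHP2, encoded by PTPN11, relays receptor tyrosine kinase signals to RAS and ERK. The labels give no separate cultures behind replicates 1 and 2, so the p-values may describe technical spread alone.

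In this family, BH3-only proteins such as BIM (gene BCL2L11), BMF, PUMA (BBC3), NOXA (PMAIP1) and BIK sense stress. Pro-survival proteins such as BCL-XL (BCL2L1), MCL1, BCL2 and BFL-1 (BCL2A1) bind and hold them, and effectors such as BAX permeabilise the outer mitochondrial membrane once released. In MCF10A acini the outer cells contact the basement membrane while the inner cells do not, and death of the inner cells hollows the lumen. BIM and BMF are known drivers of that death, and ERK signalling is known to restrain both, partly by marking the BIM protein for degradation. The arrays measure RNA only, and a probe set sums splice forms such as the long and short forms of BIM, BCL-X and MCL1.

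The promoters of BCL2L11, BMF, BBC3 and BCL2L1 are shown because these genes include the BH3-only drivers of lumen clearing and the members, besides MCL1, whose RNA differed with an SHP2 miR. The RefSeq promoter table (GRCh38.p14) was matched for 8 of the 10 members, and not for MCL1 and BIK. Each window runs from 250 bases before the annotated start to 30 bases after it, written 5′ to 3′ on the gene's strand. Capitals mark the motifs found on either strand, out of 4 searched with the sequences in view: the FOXO core GTAAACA, the AP-1 site TGANTCA, the ETS site CCGGAAGT and the E-box CACGTG. BCL2L11 lies at chr2:111120664-111120943 on the plus strand, BMF (the first of 2 annotated starts) at chr15:40108850-40109129 on the minus strand, BBC3 at chr19:47232638-47232917 on the minus strand and BCL2L1 (the first of 2 starts) at chr20:31723934-31724213 on the minus strand.
BCL2L11: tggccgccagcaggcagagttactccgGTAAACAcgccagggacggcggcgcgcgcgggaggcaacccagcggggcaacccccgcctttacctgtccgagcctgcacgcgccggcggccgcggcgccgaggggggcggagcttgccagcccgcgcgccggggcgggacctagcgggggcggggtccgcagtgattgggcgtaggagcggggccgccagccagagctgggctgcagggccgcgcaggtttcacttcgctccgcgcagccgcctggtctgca
BMF: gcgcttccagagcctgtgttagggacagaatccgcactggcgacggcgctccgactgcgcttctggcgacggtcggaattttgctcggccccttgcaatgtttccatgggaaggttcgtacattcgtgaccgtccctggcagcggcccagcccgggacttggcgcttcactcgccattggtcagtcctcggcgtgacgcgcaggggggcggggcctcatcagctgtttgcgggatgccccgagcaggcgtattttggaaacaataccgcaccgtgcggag
BBC3: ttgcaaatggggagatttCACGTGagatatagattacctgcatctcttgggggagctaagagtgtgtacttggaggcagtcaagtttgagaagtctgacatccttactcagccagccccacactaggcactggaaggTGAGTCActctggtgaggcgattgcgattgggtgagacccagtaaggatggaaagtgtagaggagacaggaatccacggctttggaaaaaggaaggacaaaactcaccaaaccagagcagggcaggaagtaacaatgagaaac
BCL2L1: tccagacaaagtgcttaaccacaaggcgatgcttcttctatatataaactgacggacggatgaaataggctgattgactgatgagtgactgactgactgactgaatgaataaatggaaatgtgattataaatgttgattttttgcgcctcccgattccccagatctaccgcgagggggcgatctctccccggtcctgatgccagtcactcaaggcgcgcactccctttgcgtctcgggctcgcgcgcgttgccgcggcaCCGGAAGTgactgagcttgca

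The BCL2L11 window held 1 FOXO core, whose first base lies at -223 from the start. FOXO factors are known inducers of BCL2L11 and BBC3. BBC3 held an AP-1 site at -113 and an E-box at -232, and the first BCL2L1 start held an ETS site whose first base lies 10 from the start, inside the transcript. The BMF windows held 0 of the 4 motifs. The remaining matches were 4 E-boxes in the BAX window. Of 35116 windows of the same length, 3.25% held the FOXO core, 7.35% the AP-1 site, 4.06% the ETS site and 6.94% the E-box. None of the motifs overlapped another in these windows, and a match describes letters, not a bound site.

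RNA of SHP2 itself lay below both controls on all 4 SHP2 miR arrays. PTPN11 read 7.96 and 8.44 in control, 6.04 and 5.71 under SHP2 miR1, and 6.90 and 7.28 under SHP2 miR2, all on the log2 scale of the probe set values. PTPN11 fell by 2.32 with SHP2 miR1 (adjusted p = 0.000548), and its difference with SHP2 miR2 was -1.11 (adjusted p = 0.0813). Adjusted p-values throughout come from a limma fit over all 18377 genes with Benjamini-Hochberg adjustment, and a gene is called when its adjusted p is under 0.05. Array medians lay between 5.23 and 5.35, and replicates correlated across genes at 0.985 to 0.986.

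The cells carried basal keratins, with KRT5 at 11.03 ± 0.09 and KRT14 at 9.77 ± 0.11 in control (mean ± SD, n = 2). The epithelial keratins KRT8 and KRT18 were also high in control, at 10.51 and 10.72, while KRT19 read 5.76. Averaged over both SHP2 miRs, KRT14 rose by 1.10 (adjusted p = 0.0044) and the laminin chain gene LAMB3 fell by 1.07 (adjusted p = 0.00314), while KRT17 and TP63 were not analysed here. The epithelial keratins KRT18 and KRT19 had 0.27 (adjusted p = 0.254) and 0.35 (adjusted p = 0.278). Marker lists of other cell types were not at one level. In control the 4 leukocyte markers ran from PTPRC at 3.25 to CD68 at 9.50, with CD3E at 4.58 and CD14 at 6.42, and the 6 fibroblast markers ran from LUM at 3.02 to DCN at 8.30. With SHP2 miR1, CD14 rose by 1.08 (adjusted p = 0.0366) and CD68 fell by 0.71 (adjusted p = 0.0272). Their average differences were 0.96 (adjusted p = 0.0505) and -0.43 (adjusted p = 0.118). The mean over the 4 leukocyte markers was 5.89 to 5.99 in control, 6.14 to 6.17 with SHP2 miR1 and 6.06 to 6.34 with SHP2 miR2. Of 4 endothelial markers, PECAM1 rose by 0.60 on average (adjusted p = 0.0422), and KDR rose by 0.60 with SHP2 miR1 (adjusted p = 0.0418). Over all genes, 1.53% were called higher on average and 2.66% with SHP2 miR1. The average differences of KDR, CDH5 and VWF were 0.35, 0.06 and 0.02 (adjusted p = 0.167, 0.902 and 0.946). PECAM1 and KDR were low in control, with means of 4.97 and 4.45. The endothelial list mean was 4.49 to 4.58 in control, 4.85 to 4.99 with SHP2 miR1 and 4.62 to 4.69 with SHP2 miR2. The fibroblast mean was 5.60 to 5.62 in control, 5.57 to 5.61 with SHP2 miR1 and 5.56 to 5.58 with SHP2 miR2, with average differences of -0.25 for COL1A1 (adjusted p = 0.296) and -0.21 for PDGFRB (adjusted p = 0.461). The hormone receptor genes ESR1 and PGR had 0.18 and 0.03 (adjusted p = 0.55 and 0.942), and the adipocyte genes PLIN1 and ADIPOQ 0.07 and 0.04 (adjusted p = 0.811 and 0.922). KRT5, KRT8, CD3E, PTPRC, LUM, DCN, KDR, CDH5 and VWF were named after their values were seen. The part of these markers in the results was not tested. In RNA from whole cultures, fewer cells of a type and less RNA per cell cannot be told apart.

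With SHP2 reduced, 4 members passed the test in at least 1 comparison with control. RNA of the pro-survival gene MCL1 fell averaged over both SHP2 miRs, and with SHP2 miR1 alone MCL1 and BCL2L1 fell while the BH3-only genes BCL2L11 and BBC3 rose. Averaged over both SHP2 miRs, 1 of 10 members was called, against 4.2% of all genes (1.53% higher and 2.67% lower). With SHP2 miR1, 4 of 10 members were called, 2 higher and 2 lower, against 8.6% of all genes (2.66% higher and 5.94% lower). Of all genes called with SHP2 miR1, 30.9% were higher, and 19.7% when arrays were centred on their medians. With SHP2 miR2, 0 of 10 members were called in the limma fit, against 0.37% of all genes, and 2 had an unadjusted p under 0.05, against 11% of all genes. The median difference of the 10 members was -0.01, -0.01 and 0.06 for the average, SHP2 miR1 and SHP2 miR2, beside 0.02, 0.04 and -0.01 for all genes.

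**Figure D1:**
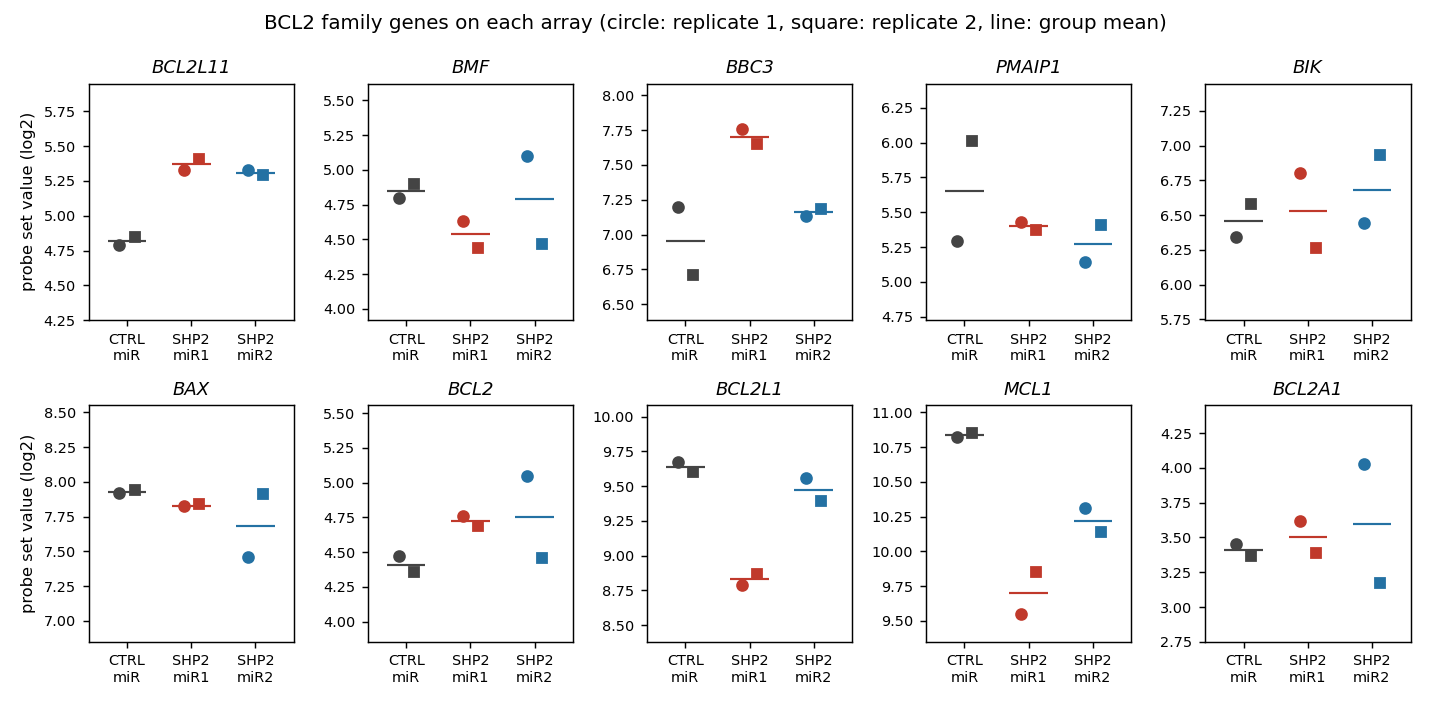
Probe set value (log2) of each of the 10 BCL2 family genes on the 6 arrays, by group; circles are replicate 1, squares replicate 2, lines the group mean, and every panel spans the same log2 range. MCL1 lies lower on all 4 SHP2 miR arrays (9.55 to 10.31) than on the controls (10.82 and 10.85), and BCL2L11 lies higher (5.29 to 5.41 against 4.79 and 4.85).

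BCL2L11 encodes BIM, the BH3-only protein that binds every pro-survival member. It read 4.79 and 4.85 in control, 5.33 and 5.41 under SHP2 miR1, and 5.33 and 5.29 under SHP2 miR2. Its control mean of 4.82 lay below every array median (5.23 to 5.35), and it has no detection call here. All 4 SHP2 miR arrays were above both controls, by at least 0.44, while the SHP2 miR groups overlapped each other. It rose by 0.55 with SHP2 miR1 (SE 0.14, 1.47-fold, adjusted p = 0.0474), and the difference with SHP2 miR2 was 0.49 (SE 0.14, adjusted p = 0.248). The average difference of 0.52 (SE 0.12, 95% interval 0.24 to 0.80) did not pass (adjusted p = 0.0535). SHP2 miR2 minus SHP2 miR1 was -0.06, with an interval of -0.39 to 0.26. The call with SHP2 miR1 was lost with any 1 array left out, at adjusted p-values of 0.0664 to 0.192, and with quantile normalization (0.092), median centring (0.0798), a mean-variance trend (0.0685), the replicate number as a block (0.0523) or only the compared groups in the fit (0.0664).

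Among all genes, those whose 6 array values followed BCL2L11 most closely were SPR, CCDC102B and CCDC51, with Pearson's r of 0.998, 0.997 and 0.996. SPR, sepiapterin reductase, read 7.42 and 7.48 in control and 7.92 to 8.07 on the SHP2 miR arrays. CCDC102B was dim, at 3.29 and 3.35 in control and 3.81 to 3.95 on the SHP2 miR arrays. These r values describe 6 arrays in 3 groups, which share the contrast between groups.

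BBC3 encodes PUMA, which p53 and FOXO factors induce. It read 7.20 and 6.71 in control, 7.76 and 7.65 under SHP2 miR1, and 7.13 and 7.18 under SHP2 miR2. Both SHP2 miR1 arrays were above both controls, while both SHP2 miR2 arrays lay between the controls, which differed by 0.49. It rose by 0.75 with SHP2 miR1 (SE 0.18, 1.68-fold, adjusted p = 0.0401), and the difference with SHP2 miR2 was 0.20 (adjusted p = 0.733). The direct difference between the SHP2 miRs was -0.54 (interval -0.96 to -0.13, adjusted p = 0.197). Without control replicate 2 the SHP2 miR1 difference was 0.50 (adjusted p = 0.237), and it passed in 1 of the 6 fits with an array left out, the one without control replicate 1 (0.99, adjusted p = 0.0311). With only the compared groups in the fit it missed the threshold (adjusted p = 0.0604).

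BMF, the other BH3-only driver of lumen clearing, is known to be held on the cytoskeleton until cells detach. It read 4.80 and 4.90 in control, 4.63 and 4.44 under SHP2 miR1, and 5.10 and 4.47 under SHP2 miR2. The SHP2 miR2 arrays lay on either side of the controls, 0.64 apart. The average difference was -0.19 (SE 0.18, interval -0.60 to 0.22, adjusted p = 0.593), and neither SHP2 miR1 (-0.32, adjusted p = 0.352) nor SHP2 miR2 (-0.07, adjusted p = 0.939) was called. The average interval for BMF ends below 0.52, the average difference of BCL2L11. BMF was dim, with a mean of 4.72 over the 6 arrays, and a dim gene has no detection call here. BCL2L11 was no brighter in control, with a mean of 4.82 against 4.85 for BMF. Like the p-values, the interval may describe technical spread alone. It therefore cannot decide whether the BMF transcript rose. TM4SF18, MAGEB2 and ZNF41 followed BMF most closely over the 6 arrays (r = 0.993, 0.991 and 0.989), each with SHP2 miR2 replicate 1 above replicate 2. TM4SF18 and MAGEB2 were dim, reading at most 4.09 and 3.26 on any array.

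PMAIP1 encodes NOXA, a p53 target that selectively neutralises MCL1. It read 5.29 and 6.01 in control, 5.43 and 5.37 under SHP2 miR1, and 5.14 and 5.41 under SHP2 miR2. The controls differed by 0.72, more than any other pair of controls among the members, and the groups overlapped. The average difference was -0.32 (interval -0.77 to 0.13, adjusted p = 0.399), and without control replicate 2 it was 0.04. BIK, a BH3-only protein of the endoplasmic reticulum, read 6.34 and 6.58 in control and 6.26 to 6.93 on the SHP2 miR arrays. Its average difference was 0.14 (interval -0.30 to 0.59, adjusted p = 0.716), and replicates of each SHP2 miR differed by 0.53 and 0.49.

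BAX is the effector that forms pores in the outer mitochondrial membrane. It read 7.92 and 7.94 in control, 7.83 and 7.84 under SHP2 miR1, and 7.46 and 7.91 under SHP2 miR2. All 4 SHP2 miR arrays were below both controls, but by only 0.02 at the nearest. The average difference was -0.17 (SE 0.15, interval -0.52 to 0.17, adjusted p = 0.56).

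MCL1 encodes a short-lived pro-survival protein that holds BIM and NOXA. It read 10.82 and 10.85 in control, 9.55 and 9.85 under SHP2 miR1, and 10.31 and 10.14 under SHP2 miR2. The groups did not overlap, with all 4 SHP2 miR arrays at least 0.51 below the controls, and SHP2 miR1 below SHP2 miR2. MCL1 fell by 0.87 on average (SE 0.14, 1.83-fold, interval -1.19 to -0.55, adjusted p = 0.0111). SHP2 miR1 alone gave a difference of -1.13 (SE 0.16, 2.2-fold, adjusted p = 0.00475). The difference with SHP2 miR2 was -0.61 (SE 0.16, 1.53-fold) and did not pass over all genes (adjusted p = 0.192). The direct difference between the SHP2 miRs was 0.52 (interval 0.16 to 0.89, adjusted p = 0.172). The average difference was -0.89 without control replicate 1 (adjusted p = 0.0732) and -0.86 without control replicate 2 (adjusted p = 0.133), and it stayed past the threshold without any of the other 4 arrays. With SHP2 miR1 the call was lost only without control replicate 2 (adjusted p = 0.0546).

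BCL2L1 encodes BCL-XL, the pro-survival member of many epithelia. It read 9.67 and 9.60 in control, 8.79 and 8.87 under SHP2 miR1, and 9.56 and 9.39 under SHP2 miR2. The SHP2 miR1 arrays stood apart from all others, and SHP2 miR2 replicate 1 was only 0.04 below the lower control. It fell by 0.81 with SHP2 miR1 (SE 0.15, 1.75-fold, adjusted p = 0.0143), and the difference with SHP2 miR2 was -0.16 (SE 0.15, adjusted p = 0.733). The average difference was -0.49 (interval -0.78 to -0.20, adjusted p = 0.0721). SHP2 miR2 minus SHP2 miR1 was 0.65 (interval 0.31 to 0.98), with an adjusted p of 0.114. The SHP2 miR1 call was lost without any 1 control or SHP2 miR1 array, at adjusted p-values of 0.0524 to 0.0875.

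The other pro-survival genes, BCL2 and BCL2A1, were not called in any comparison. BCL2 read 4.47 and 4.36 in control, 4.76 and 4.69 under SHP2 miR1, and 5.05 and 4.46 under SHP2 miR2. Its average difference was 0.32 (interval -0.07 to 0.72, adjusted p = 0.322). BCL2A1, an NF-kB target best known from leukocytes, read 3.45 and 3.37 in control, 3.62 and 3.39 under SHP2 miR1, and 4.03 and 3.17 under SHP2 miR2. Its average difference was 0.14 (interval -0.35 to 0.64, adjusted p = 0.749). BMF, BCL2 and BCL2A1 were the 3 dimmest members, with means over the 6 arrays under 4.76, the value that 40% of the probe sets do not exceed. In each of them SHP2 miR2 replicate 1 was the highest of the 6 arrays, above replicate 2 by 0.64, 0.59 and 0.86.

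**Figure D2:**
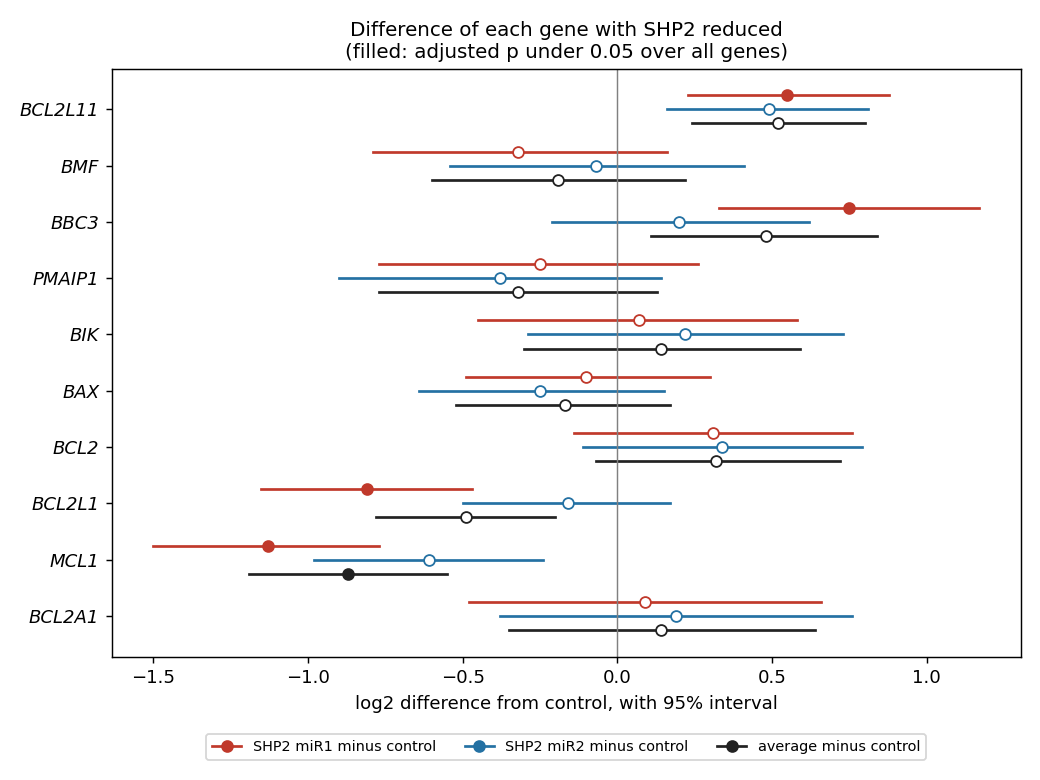
Log2 difference from control of each member, with its 95% interval, for SHP2 miR1 (red), SHP2 miR2 (blue) and the average of both (black); filled points have an adjusted p under 0.05 over all genes. MCL1 is filled for SHP2 miR1 (-1.13) and for the average (-0.87), and BCL2L1 (-0.81), BBC3 (0.75) and BCL2L11 (0.55) for SHP2 miR1 only.

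Over the whole family, all 4 SHP2 miR arrays lay above both controls in 1 of 10 members, BCL2L11, against 12.6% of all genes. They lay below both controls in 3 of 10 members, MCL1, BCL2L1 and BAX, against 13.6% of all genes. Both comparisons with control use the same 2 control arrays. The direct comparison of SHP2 miR2 with SHP2 miR1 called 0 of 10 members in limma, against 0.19% of all genes, and 3 members (BCL2L1, MCL1 and BBC3) had an unadjusted p under 0.05, against 17.7% of all genes. PTPN11 was also lower with SHP2 miR1 than with SHP2 miR2, by 1.21 (interval 0.73 to 1.70, adjusted p = 0.0645). RNA of the receptor genes differed too. ERBB3, whose product pairs with HER2, fell by 1.54 under SHP2 miR1 (adjusted p = 0.000617) and by 1.16 under SHP2 miR2 (adjusted p = 0.0143). ERBB2 fell by 0.64 with SHP2 miR1 (adjusted p = 0.031) and had -0.12 with SHP2 miR2 (adjusted p = 0.819). Whether these probe sets read the cells' own transcripts, introduced ones or both is not known here.

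**Figure D3:**
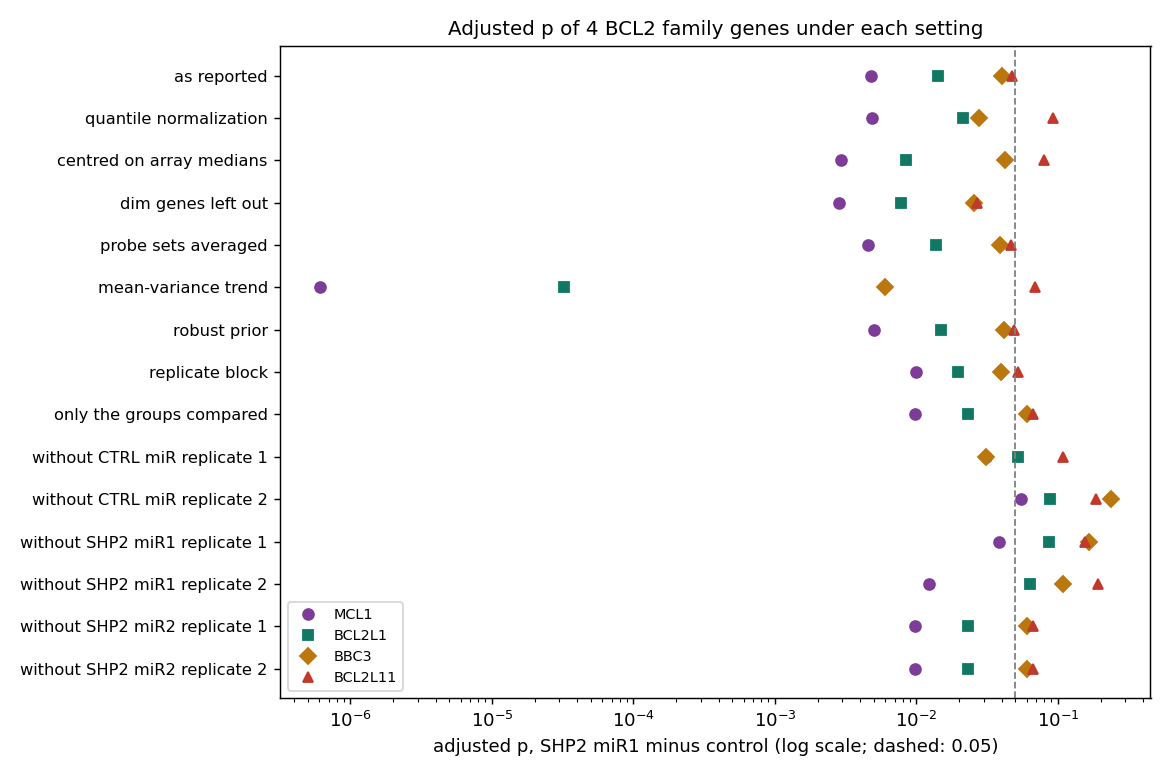
Adjusted p (log axis) for SHP2 miR1 minus control of MCL1, BCL2L1, BBC3 and BCL2L11 under each processing setting and with each array left out; the dashed line is 0.05. MCL1 crosses the line only without control replicate 2 (0.0546), while BCL2L11 lies right of it with every array left out (0.0664 to 0.192).

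The genes around the family were read from 7 lists in the average comparison, in which 1.53% of all genes were called higher, 2.67% were called lower, and 20.9% had an unadjusted p under 0.05. Of 11 measured members of the wider BCL2 family, 0 were called in limma and 2 had an unadjusted p under 0.05 (20.9% of all genes), with a list median of -0.01. These were BNIP3 at -0.46 (adjusted p = 0.0881) and BNIP3L at -0.40 (adjusted p = 0.127), both hypoxia-induced mitophagy receptors. Of 14 measured caspase, apoptosome and IAP genes, 0 were called and 3 had an unadjusted p under 0.05, again beside 20.9% of all genes, with a median of 0.00. The members of smallest p were BIRC2, an inhibitor of apoptosis, at -0.66 (adjusted p = 0.103) and APAF1, the apoptosome scaffold, at -0.56 (adjusted p = 0.144). BIRC3 and BCL2L2 were not analysed here.

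Among 12 measured death receptor genes, 1 rose and 0 fell (1.53% and 2.67% of all genes), with a median of -0.10. TNFSF10 encodes TRAIL, a death ligand that also has a known role in hollowing MCF10A acini. It read 4.35 and 3.97 in control, 5.85 and 5.79 under SHP2 miR1, and 5.28 and 5.00 under SHP2 miR2. All 4 SHP2 miR arrays were above both controls, by at least 0.65. TNFSF10 was dim in control, with a mean of 4.16 and no detection call. It rose by 1.32 on average (SE 0.16, 2.5-fold, adjusted p = 0.00277), with 1.13 and an adjusted p of 0.0539 without control replicate 2.

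Of 17 measured regulators and anchors of BIM, BMF and MCL1, 2 fell and 0 rose (2.67% and 1.53% of all genes), with a median of -0.22. An unadjusted p under 0.05 was found for 8 that were lower and 1 that was higher, beside 20.9% of all genes in either direction. RPS6KA2 encodes an RSK kinase, a class that takes part with ERK in marking BIM for degradation, and fell by 0.66 (SE 0.13, adjusted p = 0.025). The other RSK genes listed, RPS6KA1 and RPS6KA3, were not called, at 0.06 (adjusted p = 0.819) and -0.52 (adjusted p = 0.172). DYNLL1 encodes the dynein light chain that binds BIM, and fell by 0.66 (SE 0.14, adjusted p = 0.0393). Its 2 probe sets gave -0.66 (the brighter, kept here) and -0.47. The call rests on the brighter probe set, and the other was not tested on its own. RPS6KA2 was called in 1 of 6 and DYNLL1 in 0 of 6 fits with an array left out, where the highest adjusted p was 0.199 for RPS6KA2 and 0.162 for DYNLL1. DYNLL2, the other light chain gene listed, had -0.03 (adjusted p = 0.93). DYNLL2, RPS6KA1 and RPS6KA3 were named after their values were seen. So were the FOXO genes, whose products are known inducers of BCL2L11. FOXO3 had 0.55 (adjusted p = 0.145), with the SHP2 miR arrays above both controls by only 0.04 at the nearest. FOXO1, brighter in control (9.93 against 6.31 for FOXO3), had 0.00 (adjusted p = 0.994). FOXO4 had 0.14 (adjusted p = 0.638).

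ERK-induced transcripts were lower, with 10 of 12 called lower and 0 higher (2.67% and 1.53% of all genes) and a median of -0.86. SPRY4, a feedback inhibitor of the pathway, fell by 1.84 (SE 0.13, adjusted p = 0.000203). The phosphatases DUSP4 and DUSP6 fell by 1.21 and 1.06 (adjusted p = 0.00263 and 0.0101), and IER3 fell by 0.88 (adjusted p = 0.00924). IER3 protein is itself known to bind MCL1. The number of called genes was 1 without control replicate 2, 3 without control replicate 1 and 6 without SHP2 miR1 replicate 2. An ERK list chosen with earlier results of these arrays in view is not independent evidence of its direction.

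Of 12 p53 targets outside the family, 3 rose and 0 fell (1.53% and 2.67% of all genes), with a median of 0.07. SESN1, GDF15 and DDB2 rose by 0.76, 0.79 and 0.75 (adjusted p = 0.0135, 0.0187 and 0.0202), and 0 were called without either control. The canonical targets CDKN1A and MDM2, named after their values were seen, had -0.08 (adjusted p = 0.796) and 0.00 (adjusted p = 0.995). Of 10 autophagy genes 1 fell and 0 rose (2.67% and 1.53% of all genes), and the median was -0.38. With SHP2 miR1 alone, 3 fell and 0 rose (5.94% and 2.66% of all genes). In the average comparison 6 of the 10 had an unadjusted p under 0.05, all lower, beside 20.9% of all genes in either direction. ATG16L1, which positions LC3 lipidation, fell by 1.12 (SE 0.14, 2.17-fold, adjusted p = 0.00363), with an adjusted p of 0.0731 without control replicate 2.

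**Figure D4:**
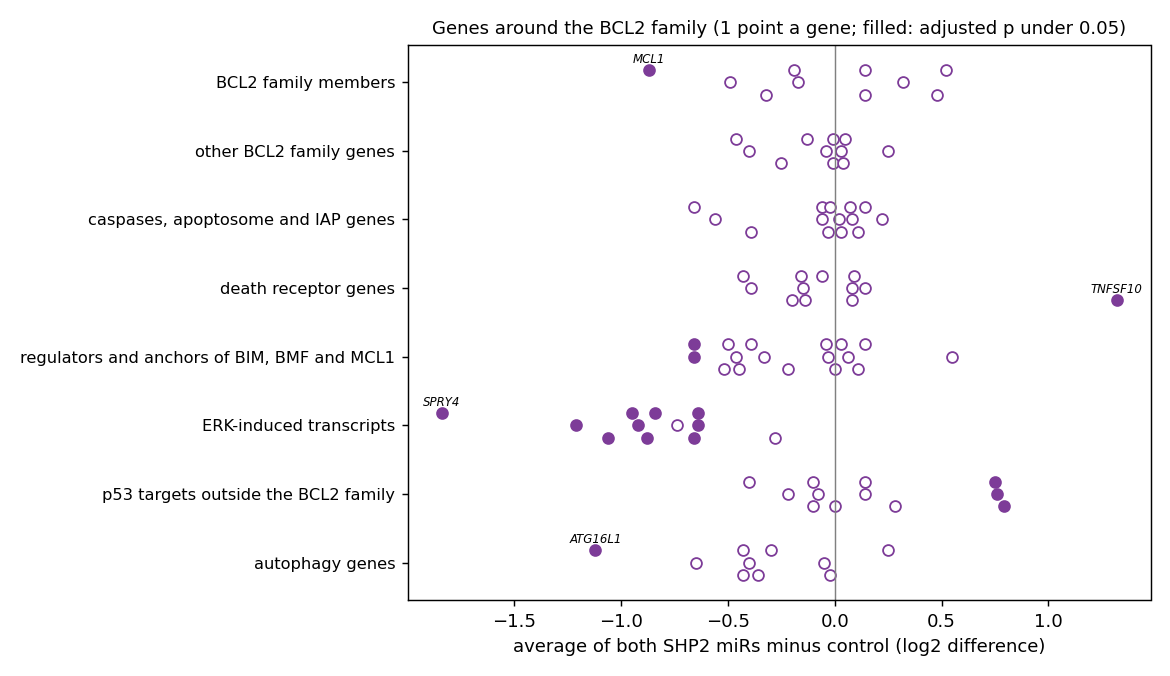
Average log2 difference of both SHP2 miRs from control for each measured gene of the 10 members and of 7 lists around them, 1 point a gene; filled points have an adjusted p under 0.05. The filled points are 1 member (MCL1), 1 death receptor gene (TNFSF10), 2 regulators, 10 of 12 ERK-induced transcripts, 3 p53 targets and 1 autophagy gene (ATG16L1), while the wider BCL2 family and the caspase list hold 0.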

How the data were processed

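The 6 arrays were of the Affymetrix HuGene-1_0-st type. The authors deposited 1 log2 value for each probe set, and base 2 was inferred from the range of values. R 2.10 and oligo 1.8 are named in the submitters' processing notes, while how the authors normalized and summarised the probes, and on which build, is not given in the sources used here. Groups came from the sample titles. Of 28869 probe sets, 19310 carried a single gene symbol, and the brightest was kept for each of 18377 genes. limma 3.58.1 in R 4.3.3 fitted 3 groups to all 6 arrays (3 residual and 6.1 prior degrees of freedom), with two-sided p-values adjusted by Benjamini-Hochberg over all genes and a threshold of 0.05. The fit was checked on simulated data with known changes larger than any member difference. The check therefore does not cover changes of the size reported for the members. The number of arrays limits the precision, and with no signal for background a dim gene has no detection call.

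The members, lists and tests were chosen with earlier results of these data known. Always named were the 10 members, PTPN11, ERBB2 and ERBB3. From each list, up to 4 called genes of smallest p were named, or 2 as values where none was called, and the 3 genes most like BCL2L11 and BMF. Alternatives were quantile normalization, median centring, a filter on dim genes, averaged probe sets, a mean-variance trend, a robust prior, a replicate block, a fit limited to the groups compared, and leaving out each array.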

Additional observations from a re-analysis of the deposited data

How the results depend on the processing

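Of 538 recomputed member differences, 484 kept direction and side of the threshold, 24 lost the call, 7 gained it and 23 turned sign. No difference that was called turned sign. For the average, 3 members were called with dim genes left out or with a mean-variance trend, against 1, and 0 to 1 with an array left out. With SHP2 miR1, 2 were called on only the groups compared, against 4, and 0 to 2 with an array left out. With the trend, 1 was called with SHP2 miR2 (MCL1) and 2 between the SHP2 miRs (BCL2L1 and MCL1). BMF, BCL2 and BCL2A1 have no value with dim genes left out. The cause of these changes was not tested.

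Signs that turned were all of uncalled differences. For SHP2 miR2 minus SHP2 miR1, BCL2L11 was 0.03 with quantile normalization and 0.02 with centring. With SHP2 miR1, BIK was -0.01 with centring, and with quantile normalization BAX was 0.03 and BCL2A1 -0.03. With an array left out, the average spanned -0.68 to 0.04 for PMAIP1 and -0.07 to 0.36 for BCL2A1. With SHP2 miR1 it spanned -0.61 to 0.11 for PMAIP1, -0.20 to 0.33 for BIK and -0.02 to 0.21 for BCL2A1. With SHP2 miR2 it spanned -0.38 to 0.25 for BMF, -0.04 to 0.45 for BBC3, -0.03 to 0.47 for BIK and -0.24 to 0.62 for BCL2A1. Between the SHP2 miRs it spanned -0.07 to 0.57 for BMF, -0.26 to 0.01 for PMAIP1, -0.11 to 0.42 for BIK, -0.37 to 0.07 for BAX, -0.26 to 0.33 for BCL2 and -0.33 to 0.53 for BCL2A1.

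Same-numbered arrays deviated together only weakly (r = 0.0669, 0.14 and 0.0134 across genes). The labels do not say whether a number marks a shared culture or batch. With 2 arrays a group, these r values cannot decide that. With the replicate block, BCL2L11 with SHP2 miR1 had an adjusted p of 0.0523, and 1, 3, 0 and 0 members were called for the average, SHP2 miR1, SHP2 miR2 and the direct comparison.

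Over all genes, the average called 771, against 1793 with the trend and 108 to 512 with an array left out. SHP2 miR1 called 1581, against 2786 and 269 to 1308. SHP2 miR2 called 68, against 367 and 0 to 60, 154 without dim genes and 37 with the replicate block. The direct comparison called 35, against 446 and 0 to 15, 95 without dim genes, 69 with centring, and 12 with the block or only the groups compared.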
